A study of Homo sapiens with 8 samples.

Results

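Gene-boundary regions lost in both lines are stretches of accessible chromatin beside protein-coding genes that had an ATAC-seq peak in every control sample of 2 lung cancer lines and in no sample treated with ACBI1. They were chosen by peak presence itself: overlapping peaks of all 8 deposited lists (at least 1 bp, chromosomes 1 to 22 and X) were merged, and a region was kept when all 4 DMSO lists and none of the 4 ACBI1 lists held a peak in it and when it came within 1 kb of a start or an end of a gene that codes for protein. The rule gave 230 regions, beside the boundaries of 251 genes, of 69078 merged regions in all. The treatment contrast chose the members, so their loss is a description and carries no test. "Lost" stands for the absence of a listed peak, which is not a measurement of closed chromatin, and "retained" for a peak in all 8 lists.

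The 4 groups were H1975 with DMSO, H1975 with ACBI1, HCC44 with DMSO and HCC44 with ACBI1, each with 2 replicates. H1975 and HCC44 are established human lung cancer cell lines, and the labels give genotype WT for every sample. DMSO is the solvent, and ACBI1 is a degrader of SMARCA2, SMARCA4 and PBRM1, labelled at 1 mM for 96 h. Nothing in the labels says whether the replicates came from separate cultures, so a spread between them may be technical. Protein levels of the degraded subunits were not analysed here.

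SWI/SNF complexes use the ATPase SMARCA2 or SMARCA4 to slide or evict nucleosomes and so keep regulatory DNA open. They are known mainly for their work at enhancers, whereas promoters rich in CpG dinucleotides tend to stay free of nucleosomes by other means as well. Promoters poor in CpG, typical of tissue-restricted and inducible genes, resemble enhancers in needing sequence-specific factors such as AP-1, a dimer of FOS and JUN family proteins, to be opened. ATAC-seq reads open DNA through a transposase that inserts sequencing adapters where nucleosomes leave room.

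The deposited lists held 41003 to 50323 peaks with DMSO and 22115 to 27659 with ACBI1 on the chromosomes used. Read depth was not given in the sources used here, and the lowest deposited −log10 q was between 10 and 10.2 in every list. The ACBI1 lists were thus shorter in both lines, and the count of members with lists of equal length is given beside the total. Cell type markers were read only as the presence of a boundary peak, which is not a measure of expression. Of 10 lung epithelial markers, 8 had a boundary peak in all 8 lists, the exceptions being NKX2-1 and SFTPB. Of 5 leukocyte markers 1, CD14, had a peak in all 8 lists, and of 4 endothelial markers none did. Of 5 fibroblast markers 1, COL1A1, did. A peak in no list was found for 3 of the leukocyte, 3 of the endothelial and 1 of the fibroblast markers, so others had a peak in some lists.

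Sequence was read only in promoter windows, and those that lost regions overlapped showed a feature that the rule did not use. Such a window can extend beyond the lost region, so a match need not lie inside the region. Of the 43 promoters that a lost region itself overlapped, 14 held the 7-base pattern TGANTCA, which contains the binding site of AP-1. The sequences shown are the 250 bases before the gene start of 8 of these promoters and, for contrast, of OAS1, whose promoter window was overlapped by a lost region and holds no such pattern. They are reference sequence from RefSeq (GRCh38.p14), not the sequence of these lines, and the 8 were picked for their genes' roles after the matches were seen. They are written 5′ to 3′ along the gene, with every TGANTCA in capitals.
IL1A: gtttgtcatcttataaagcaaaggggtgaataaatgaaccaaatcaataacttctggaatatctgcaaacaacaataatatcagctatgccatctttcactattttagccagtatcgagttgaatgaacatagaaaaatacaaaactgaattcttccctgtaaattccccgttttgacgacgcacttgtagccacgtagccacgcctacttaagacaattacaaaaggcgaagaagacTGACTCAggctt
IL23A: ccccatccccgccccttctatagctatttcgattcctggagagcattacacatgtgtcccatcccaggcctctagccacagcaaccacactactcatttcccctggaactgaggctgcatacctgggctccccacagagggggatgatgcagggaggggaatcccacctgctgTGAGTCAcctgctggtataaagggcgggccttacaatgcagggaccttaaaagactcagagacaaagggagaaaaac
EBI3: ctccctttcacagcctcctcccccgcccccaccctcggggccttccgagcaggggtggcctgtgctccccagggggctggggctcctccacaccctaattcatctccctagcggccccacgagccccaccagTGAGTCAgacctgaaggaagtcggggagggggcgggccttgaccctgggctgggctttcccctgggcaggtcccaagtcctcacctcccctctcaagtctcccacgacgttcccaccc
LCN2: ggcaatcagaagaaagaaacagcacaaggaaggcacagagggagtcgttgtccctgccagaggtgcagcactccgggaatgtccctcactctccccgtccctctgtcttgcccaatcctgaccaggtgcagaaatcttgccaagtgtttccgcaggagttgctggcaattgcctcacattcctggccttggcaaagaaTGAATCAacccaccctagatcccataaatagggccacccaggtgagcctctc
S100A12: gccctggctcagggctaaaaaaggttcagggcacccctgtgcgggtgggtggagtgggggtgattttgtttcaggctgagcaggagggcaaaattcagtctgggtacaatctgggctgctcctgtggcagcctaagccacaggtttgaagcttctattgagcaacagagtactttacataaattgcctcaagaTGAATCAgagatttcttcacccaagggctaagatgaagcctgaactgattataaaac
S100A3: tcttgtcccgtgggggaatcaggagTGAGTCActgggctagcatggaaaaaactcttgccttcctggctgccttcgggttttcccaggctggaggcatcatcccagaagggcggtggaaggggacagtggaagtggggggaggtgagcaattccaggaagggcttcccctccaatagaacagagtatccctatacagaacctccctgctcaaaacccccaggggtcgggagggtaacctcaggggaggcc
GPNMB: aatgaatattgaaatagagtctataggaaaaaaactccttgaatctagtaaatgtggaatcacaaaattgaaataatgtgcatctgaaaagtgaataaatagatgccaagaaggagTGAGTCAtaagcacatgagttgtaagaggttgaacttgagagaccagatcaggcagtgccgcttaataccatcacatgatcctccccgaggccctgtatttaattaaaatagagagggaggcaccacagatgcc
ECM1: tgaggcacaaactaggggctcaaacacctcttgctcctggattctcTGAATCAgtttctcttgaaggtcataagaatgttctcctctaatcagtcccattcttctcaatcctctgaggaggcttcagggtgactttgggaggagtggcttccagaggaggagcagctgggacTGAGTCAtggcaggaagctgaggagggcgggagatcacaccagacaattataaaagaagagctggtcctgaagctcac
OAS1: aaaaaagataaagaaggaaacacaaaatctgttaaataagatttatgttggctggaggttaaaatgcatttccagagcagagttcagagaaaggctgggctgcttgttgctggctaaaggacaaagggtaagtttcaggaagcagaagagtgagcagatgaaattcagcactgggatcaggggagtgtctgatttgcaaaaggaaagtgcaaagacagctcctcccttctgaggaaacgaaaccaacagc
The windows are IL1A at chr2:112784494-112784743 on the minus strand, IL23A at chr12:56338634-56338883 on the plus strand, EBI3 at chr19:4229273-4229522 on the plus strand, LCN2 at chr9:128149203-128149452 on the plus strand, S100A12 at chr1:153375622-153375871 on the minus strand, S100A3 at chr1:153549259-153549508 on the minus strand, GPNMB at chr7:23246525-23246774 on the plus strand, ECM1 at chr1:150507859-150508108 on the plus strand and OAS1 at chr12:112906712-112906961 on the plus strand. In IL1A, which encodes the inflammatory cytokine interleukin-1 alpha, the pattern began 12 bases before the start. It began 77 bases before the start in IL23A, 118 in EBI3, 52 in LCN2, 57 in S100A12, 225 in S100A3 and 134 in GPNMB. ECM1, an extracellular matrix glycoprotein, held it at 204 and again at 78 bases before the start. The pattern therefore lay at no common distance from the start.

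Over the whole 300-base promoter window of the RefSeq table (250 bases before the start and 50 from it), TGANTCA was present in 32.6% of the 43 promoters overlapped by a lost region. In the wider set of 81 promoters whose start window held a lost region, it was present in 15 (18.5%). It was present in 4.04% of the 8663 promoters whose start window held a retained region, in 7.69% of the 5360 with no region of any list and in 5.76% of all 15811 protein-coding promoters in the table. TGANTCA reads the same on both strands; a match is a description of letters, not a bound site. The form with C or G in the middle, the usual AP-1 site, was in 11 of the 43 (25.6%) against 2.75% of retained promoters. The form with A or T in the middle was in 4 of the 43 (9.3%) against 1.4%. This split of the pattern was added after its share had been seen.

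The overlapped promoters were also poor in CpG. The CpG ratio is the observed number of CpG dinucleotides over the number expected from the C and G content. It was under 0.6 in 35 of the 43 (81.4%), against 984 of 8663 retained promoters (11.4%) and 34.2% of all promoters. Of the 81 promoters whose start window held a lost region, 57 (70.4%) were under 0.6. Promoters with no region of any list came close to the overlapped ones, at 67.8%. The median GC content was 54.7% in the overlapped promoters and 66% in the retained ones.

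CpG content and TGANTCA were therefore read together. Among promoters with a CpG ratio under 0.6, the pattern was in 12 of 35 overlapped by a lost region (34.3%) and in 103 of 984 retained ones (10.5%). Retained promoters whose regions ranked in the weaker 3 of 5 rank classes held it in 4.23% of 2342. Read from the promoter side, 8517 promoter windows were overlapped by a gene-boundary region with a peak in all 4 DMSO lists, and 43 of them (0.505%) had lost it. With a CpG ratio under 0.6 and TGANTCA, 12 of 111 were lost (10.8%). With a low ratio and no TGANTCA, 23 of 687 were lost (3.35%). With a ratio of 0.6 or more, 2 of 252 with the pattern (0.794%) and 6 of 7467 without it (0.0804%) were lost. These comparisons were added after the shares had been seen, and they rest on few lost promoters.

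The other 6 patterns were searched on either strand. None of them contains TGANTCA, but GGAATG can share end letters with it, as in the RAET1L promoter. The TATA box, TATAAA, was in 20.9% of overlapped and 4.94% of retained promoters. The GC box, GGGCGG, was in 37.2% and 73.3%, and the ETS pattern CCGGAAG in 2.33% and 21.2%. The TEAD pattern GGAATG was in 16.3% and 10.3%, the CRE pattern TGACGTCA in 2.33% and 3.46% and the NRF1 pattern GCATGCG in 4.65% and 7.16%. Their shares in all promoters were 9.64% for TATAAA, 58.5% for GGGCGG, 14.2% for CCGGAAG, 11.7% for GGAATG, 2.59% for TGACGTCA and 5.14% for GCATGCG. In the promoters with no region of any list, TATAAA stood at 17.3% and GGGCGG at 35.3%, near the overlapped promoters; TGANTCA, at 7.69%, did not stand near them.

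**Figure D1:**
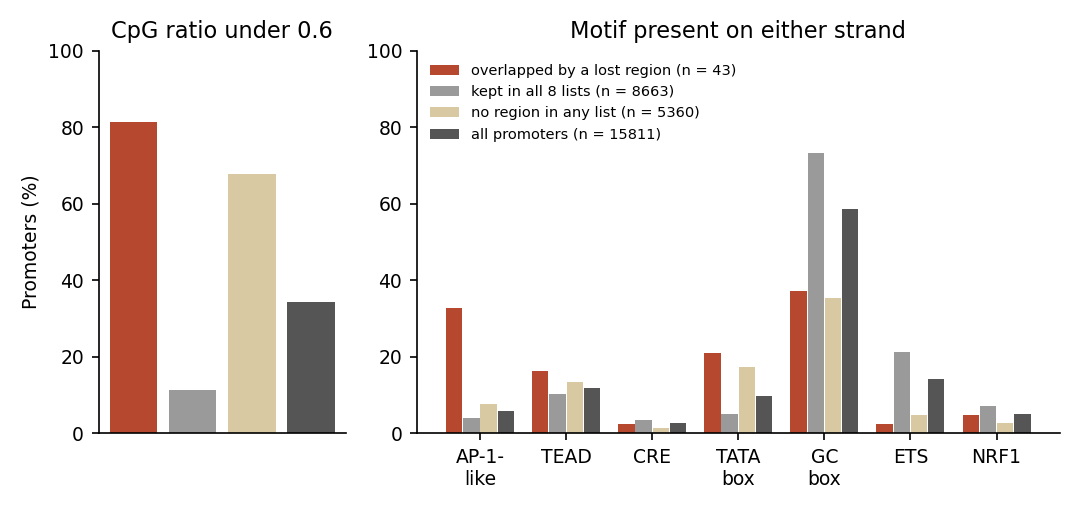
Percent of promoters (y axis) with a CpG ratio under 0.6 (left) and with each of the 7 patterns on either strand (right), for promoters overlapped by a lost region, promoters retained in all 8 lists, promoters with no region in any list and all promoters. The AP-1-like pattern was in 32.6% of overlapped and 4.04% of retained promoters, and a low CpG ratio in 81.4% and 11.4%. Among the 81 promoters whose start window held a lost region, which are not drawn, the shares were 18.5% and 70.4%.

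The loss was rare beside genes and frequent elsewhere. Of 10179 gene-boundary regions with a peak in all 4 DMSO lists, 230 (2.26%) had none in any ACBI1 list and 9289 kept one in all 8 lists. Of 18901 regions away from gene boundaries with a peak in all 4 DMSO lists, 7061 (37.4%) were lost. The reverse case was rarer still: of 9457 gene-boundary regions with a peak in all 4 ACBI1 lists, 11 (0.116%) had none with DMSO. The DMSO lists were longer, and neither this share nor that of regions away from genes was computed with lists of equal length. When every list was cut to its 22115 peaks of highest −log10 q, the number of lost gene-boundary regions was 40, or 0.58%, of which 29 were among the 230, an overlap that was counted after the data had been seen. These 29 lay beside, among others, S100A12, GRHL3, IL10, PDZK1, CHRNA9, PRDM11, HTR3A, SLC16A3 and FAM3A. Of the 4 overlapped promoters left among them, 1 held TGANTCA and all 4 had a CpG ratio under 0.6.

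The rank of a region in the DMSO lists and its loss moved together. When all regions were split by mean −log10 q rank into 5 classes, in the weakest class, 102 of 1012 gene-boundary regions were lost (10.1%), then 65 of 1124 (5.78%), 50 of 1583 (3.16%), 13 of 2576 (0.505%) and 0 of 3884 in the strongest class. Regions away from genes were lost more often in every class, from 54.4% in the weakest to 2.9% in the strongest. At like rank the boundary regions were thus lost less often than the others in these lists.

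**Figure D2:**
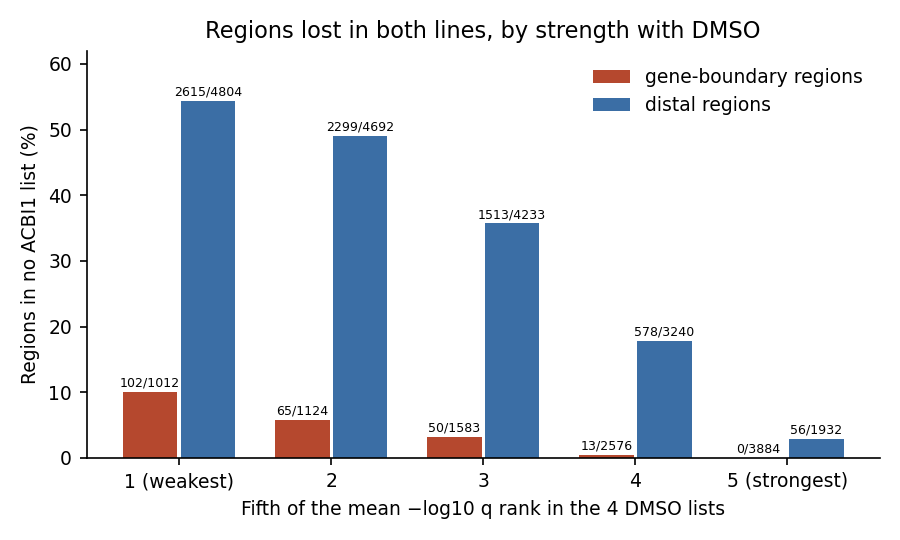
Percent of regions with a peak in all 4 DMSO lists that had no ACBI1 peak (y axis), by 5 classes of the mean −log10 q rank in the DMSO lists (x axis), for gene-boundary and distal regions, with lost over all regions above each bar. Gene-boundary regions went from 10.1% in the weakest class to 0 of 3884 in the strongest, and distal regions from 54.4% to 2.9%.

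Seen from H1975, most losses were shared with HCC44. Of the 10179 regions, 317 (3.11%) had no peak in the ACBI1 lists of H1975 and 475 (4.67%) had none in those of HCC44. Of the 317, 230 (72.6%, 95% Wilson interval 67.4 to 77.2) were lost in HCC44 too, and 59 kept a peak in both HCC44 ACBI1 lists. Of 9604 regions retained in H1975, 158 (1.65%, 1.41 to 1.92) were lost in HCC44. Read the other way, 230 of the 475 lost in HCC44 (48.4%, 44 to 52.9) were lost in H1975, against 59 of 9481 (0.622%, 0.483 to 0.802) of those retained in HCC44. The intervals cover counting error only, since neighbouring regions and those of like rank are not independent.

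Just outside the rule, 115 regions had a peak in all 4 DMSO lists and in exactly 1 ACBI1 list, and 101 had a peak in 3 DMSO lists and no ACBI1 list. Of the 115, 80 had their only ACBI1 peak in H1975 replicate 1, the longest of the ACBI1 lists. Without that list the rule gave 310 regions. The number lost in H1975 then went from 317 to 562, against 476 in HCC44, so the order of the lines turned. The shared percents turned too, to 55.2% of H1975 losses and 65.1% of HCC44 losses. The other 7 lists, left out in turn, gave between 237 and 270 regions.

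The members were narrow and of middling rank. Merged over the lists they were 342 to 2551 bp wide with a median of 683 bp, against 1403 bp for retained gene-boundary regions and 643 bp for lost regions away from genes. In H1975 with DMSO their peaks covered a median of 466 and 390.5 bp in replicates 1 and 2, and in HCC44 570.5 and 578.5 bp. Retained regions covered 1148 and 1086 bp in H1975, against 1250 and 1246 bp in HCC44. The members' median −log10 q stood at percentiles 37 and 33.8 of the H1975 lists and 46.5 and 46.7 of the HCC44 lists, and that of retained regions between 80.2 and 82. The authors' fold enrichment set them apart less: the medians were 6.39 and 6.45 in H1975 and 5.28 and 4.99 in HCC44, beside 6.93, 7.37, 5.47 and 5 for retained regions.

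Both lines held the members, but with wider peaks in HCC44. The log2 median width was 8.74 ± 0.18 (SD, n = 2) in H1975 and 9.17 ± 0.014 (SD, n = 2) in HCC44, a difference of 0.43 against a pooled SD of 0.13. The exact permutation test, two-sided, gave p = 0.33, the smallest that the 6 arrangements of 2 against 2 lists allow. Relative to retained regions in the same lists the difference was 0.27 (pooled SD 0.088, exact permutation p = 0.33). Of the 230 members, 138 (60%) were wider in both HCC44 lists than in both H1975 lists and 27 (11.7%) the reverse. Among retained regions, 4653 (50.1%) were wider in both HCC44 lists. The reverse was not counted for retained regions, so the 11.7% has no share to be read against. The smallest peak of a list was 191 and 177 bp in the H1975 DMSO lists and 251 and 265 bp in those of HCC44, and its part in this difference was not tested.

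**Figure D3:**
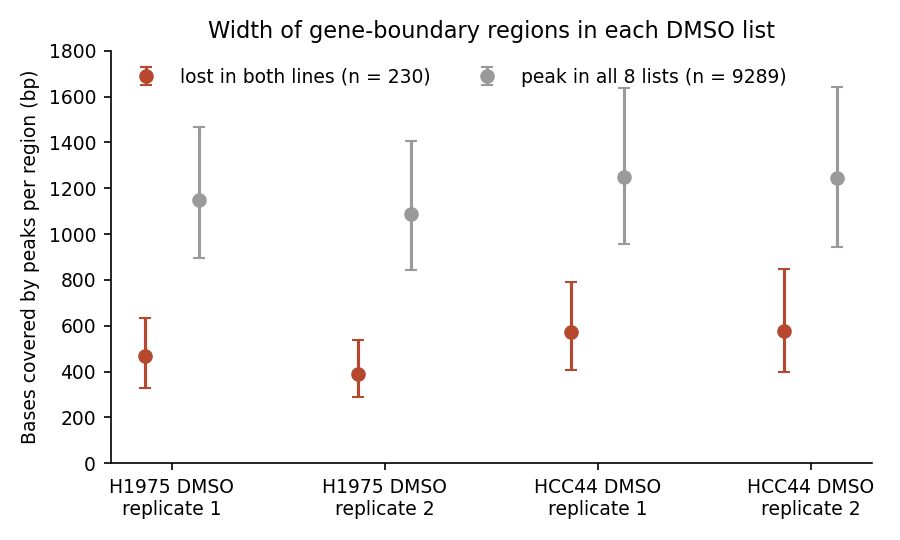
Bases covered by peaks per region (y axis) in each of the 4 DMSO lists (x axis), as the median with bars from the lower to the upper quartile, for the 230 lost and the 9289 retained gene-boundary regions. Lost regions lay at medians of 390.5 to 578.5 bp and retained ones at 1086 to 1250 bp.

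The members took several positions relative to their genes. Of the 230, 91 (39.6%) held a boundary position itself and 167 (72.6%) overlapped a gene body. These shares were not computed for retained regions. The windows reach 1 kb into each gene by the rule, which favours overlap with a gene body. The strand of a gene was read from the RefSeq promoter table, which named 190 of the 251 genes (75.7%) and 15811 of 19970 protein-coding genes (79.2%); with fewer than 80% known, no share of starts over all members was drawn. By count, 78 regions lay at a gene start, 95 at a gene end only and 57 beside genes of unknown orientation. Of 7971 start regions with a peak in all DMSO lists 78 were lost (0.979%), of 504 regions at an end only 95 (18.8%), and of 1704 of unknown orientation 57 (3.35%). End regions were in this respect between start regions and distal regions.

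At the starts, 46 of 81 gene starts (56.8%) lay inside the lost region, whereas 8247 of 8664 starts with a retained region (95.2%) lay inside it. Retained regions were also wider, with a median of 1403 bp against 683 bp, and the part of width in this contrast was not tested. The region's centre was upstream of the start in 38 of the 81 (46.9%). At the ends, the centre lay beyond the end in 68 of 113 (60.2%). The shares of centres upstream of a start or beyond an end were not computed for retained regions. The promoter table placed the start at the outer end of the gene for 60 of the 81 and over 1 kb inside the gene for 18.

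**Figure D4:**
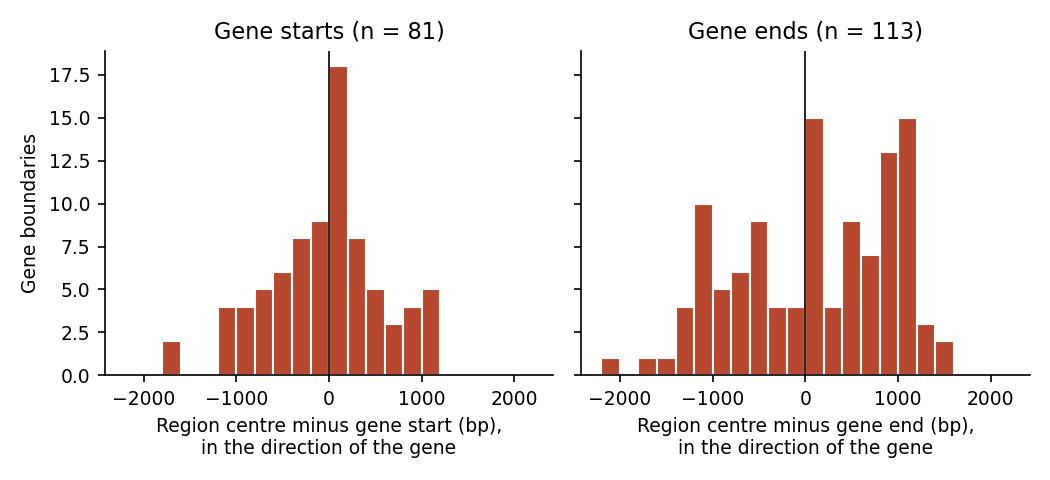
Distance in bp from gene start (left, 81 starts) or gene end (right, 113 ends) to the centre of the lost region (x axis), signed along the gene, against the number of gene boundaries (y axis). Starts gather near 0, with 46.9% of centres upstream, while ends spread over the window, with 60.2% of centres beyond the end.

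For most genes with a loss at the end, a region at the start stayed listed. The start is here the outer end of the gene. Of 109 genes that lost a region at the end only, 74 kept a start region in all 8 lists. Among all 15811 protein-coding promoters in the table, 8663 had a start window with a retained region. The share among genes with a retained end region was not computed. Of 81 genes that lost a region at the start, 1 kept another boundary region and none kept another start region in all 8 lists. Of the 18 whose start in the promoter table lies over 1 kb inside the gene, 9 had a region with a peak in all 8 lists on that inner promoter: FAM20B, LPIN1, PFKFB4, IFRD1, TRIM34, MRE11, ACAT1, UACA and SLC16A3. For none of the 18 did a lost region overlap the promoter window given in the table. These counts were added after the data had been seen. In all, 99 of the 251 genes kept a retained region at 1 of their boundaries and 152 did not. No share over other genes was computed for these counts or for the 1 of 81. Only FAM25A had 2 lost regions, of 899 and 806 bp at its start and beyond its end, and 21 regions touched boundaries of 2 or more genes.

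Distances to chromatin that kept a peak varied widely. The nearest peak of any ACBI1 list was at a median distance of 8.86 kb (0.648 to 237), under 10 kb for 126 members and under 1 kb for 4. The nearest region retained in all 8 lists was at a median of 21.3 kb (1.07 to 737). Another lost region lay within 50 kb of 91 members (39.6%) and of 2989 retained gene-boundary regions (32.2%). No retained region lay within 50 kb of 58 members (25.2%), and no other retained region within 50 kb of 3252 retained ones (35%). The members were spread over the chromosomes, from 32 on chromosome 1 and 23 on chromosome 2 to 1 on chromosome 18, or from 0.68% to 3.48% of a chromosome's boundary regions.

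Of 11405 genes with a boundary region in all 4 DMSO lists, 251 (2.2%) had a lost one, and this share is the level against which each gene list is read. Several lists stood above it and several had no lost region, but each rests on a handful of genes, the lists overlap and cover only part of their class, and they were drawn up with earlier results of these data known. No test was made.

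Cytokines and chemokines are secreted signals that recruit and instruct immune cells. The list used held only part of them; the cytokines IL4 and IL10 and the ligands TNFSF8 and CD70, which are members too, were not on it. Of its 19 genes with a region in all DMSO lists, 4 had a lost one (21.1%) and 11 a retained one. These 4 losses were at the start, taken as the outer end of the gene. The CCL26 region did not overlap that gene's promoter window, whereas those of IL1A, IL23A and EBI3 did. The IL1A region, 371 bp across its start, had −log10 q values of 25.7 and 29.9 in H1975 replicates 1 and 2 and 16.1 and 14.8 in HCC44. IL23A, a subunit of interleukin-23, had a region of 484 bp with 30.6 and 22.4 in H1975 and 25.1 and 20.3 in HCC44. EBI3, a subunit shared by interleukins of the IL-12 family, had 740 bp with 21.4 and 15.8, and 27.4 and 26.2. CCL26, a chemokine for eosinophils, had 581 bp with 32.1 and 32.9, and 32.3 and 26.8. The 4 regions were of low to middling rank with DMSO, at mean percentiles of 20 for IL1A, 29 for IL23A, 26.9 for EBI3 and 43.2 for CCL26. With lists of equal length none of these 4 was among the 29 members still found. The nearest ACBI1 peak was 19.1 kb from the IL1A region, 4.06 kb from that of IL23A, 3.01 kb from that of EBI3 and 28.6 kb from that of CCL26. Further immune genes among the members, chosen for mention after the values were seen, were IL4, IL7R, MEFV, LCN2, TRIM34, FCRLA and RAET1L at the start, IL10, IL20RA, TLR5 and TRIM25 at the end, and LY9, TNFSF8 and CD70 with no known orientation. Of those at the start, the regions of IL4, IL7R and TRIM34 did not overlap the promoter windows of these genes.

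The interferon and STING pathway, which senses nucleic acids in the cytosol and is named in the series title, had 2 of 22 genes with a lost region (9.09%) and 17 with a retained one. At the start of OAS1, which makes the oligoadenylates that activate RNase L, a region of 683 bp covered 325 and 357 bp (H1975) and 311 and 683 bp (HCC44). Its −log10 q stood at 24.9 and 20.9 with H1975, and at 15.2 and 15.6 with HCC44. At IFIT2, an interferon-induced RNA-binding protein, the region of 1526 bp had 21 and 23.1 in H1975 and 24.4 and 27.8 in HCC44. Both regions ranked low, at mean percentiles of 15.3 for OAS1 and 29.5 for IFIT2, and with lists of equal length neither was among the 29 members still found.

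The annexins and S100 proteins, calcium-binding proteins of membranes and inflammation, had 5 of 23 genes with a lost region (21.7%) and 15 with a retained one. S100A12, a neutrophil alarmin, had 464 and 394 bp covered in H1975 and 569 and 597 bp in HCC44, with −log10 q of 39.7, 45.9, 44.9 and 37.6. S100A3 had 453 and 408 bp in H1975, against 787 and 608 bp in HCC44. ANXA1, an anti-inflammatory phospholipid-binding protein, had 858 and 273 bp in H1975, against 479 and 1323 bp in HCC44, so its width differed as much between replicates as between lines. ANXA9 had 238 and 195 bp in H1975, against 591 and 583 bp in HCC44. ANXA5, which binds phosphatidylserine, lost a region of 497 bp 400 bp from its end and kept its start in all 8 lists. The S100 regions and those of ANXA1 and ANXA9 lay at starts, but the ANXA9 region did not overlap that gene's promoter window. With lists of equal length only S100A12 of these 5 genes was beside a member still found.

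Keratins form the intermediate filaments of epithelia. Of 10 with a region in all DMSO lists, 3 had a lost one (30%) and 6 a retained one. With lists of equal length none of these 3 was among the 29 members still found. KRT5, a basal cell keratin that is also in the lung lineage list (1 of 12, 8.33%), had a region 947 bp from its start that covered 742 and 757 bp (H1975) and 1220 and 1320 bp (HCC44). KRT16, a keratin of stressed and wounded epithelium, had −log10 q of 45.3 and 32.1 in H1975 and 48.8 and 31.5 in HCC44. KRT13, found in stratified epithelia, had 19.3 and 17.5, and 24.8 and 30.1. KRT7, KRT8, KRT18 and KRT19, the keratins of simple epithelium, kept a boundary peak in all 8 lists.

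Transporters, receptors and matrix genes stood nearer to the level of all genes. Of solute carriers 5 of 203 had a lost region (2.46%): SLC16A3, a lactate exporter, SLC51B, a subunit of a steroid and bile acid transporter, SLC2A14, a glucose transporter, SLC1A4, a neutral amino acid exchanger, and SLC10A3. The SLC16A3 region, 1651 bp across the outer start of the gene, covered 1607 and 1409 bp in H1975, against 1515 and 1500 bp in HCC44, more than most members. Of the receptor list 4 of 72 had a lost region (5.56%): the muscarinic receptor CHRM1, the chemokine receptor CCR10, and HTR3A and HTR3D, which are subunits of a serotonin-gated channel rather than G protein-coupled receptors. Of collagens and metalloproteinases 2 of 37 did (5.41%), COL7A1, of the anchoring fibrils of skin, and the protease ADAMTS8. The COL7A1 region was at its end and also beside UCN2 and PFKFB4.

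Growth, signalling and transcription factor lists had 1 or 2 losses each, all but 1 at gene ends. In the list of YAP and TEAD genes 1 of 18 (5.56%), AMOTL1, a YAP-binding protein of the angiomotin family, lost a region at its end. FGF2, a fibroblast growth factor, was 1 of 25 growth factor genes (4%), with 35.8 and 33.4 as −log10 q in H1975 and 53 and 27.2 in HCC44. Small GTPase regulators had 2 of 73 (2.74%), the Ras effector RASSF5 and the Cdc42-binding kinase CDC42BPB, both at the end with a start kept in all 8 lists. Developmental transcription factors had 2 of 79 (2.53%), KLF17 at its start and GATA1, the erythroid factor, at its end. The KLF17 region did not overlap that gene's promoter window. The list of KRAB-type and other ZNF genes had 1 of 287 (0.348%), ZNF740, at its end. It does not hold all zinc finger genes. ZFP62, PRDM7 and RLF, and KLF17 and GATA1 named above, encode zinc finger proteins, are members and were not on it.

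No boundary region was lost among the genes of 8 lists as drawn up. Counts are of genes with a region in all 4 DMSO lists. There were 15 AP-1 and related factors, 24 SWI/SNF subunits, 17 genes of junctions and cadherins and 17 mesenchymal and TGF-beta genes. The other lists held 22 integrins and laminins, 46 ion channels, 9 serpins and kallikreins and 75 ribosomal protein genes. The lists of channels, of junction genes and of mesenchymal and TGF-beta genes are among those that are not complete. The channel genes HTR3A, HTR3D, CHRNA9 and BEST1 and the junction or cadherin genes PERP and CELSR2 are members and were not on them. FSTL3, TGIF1 and BMPER, of TGF-beta or BMP signalling, are members too and were not on the list of mesenchymal and TGF-beta genes. All 24 SWI/SNF genes and all 17 mesenchymal and TGF-beta genes kept a region in all 8 lists. For the shorter lists a count of 0 says little, since 2.2% of 17 genes is less than 1 gene.

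**Figure D5:**
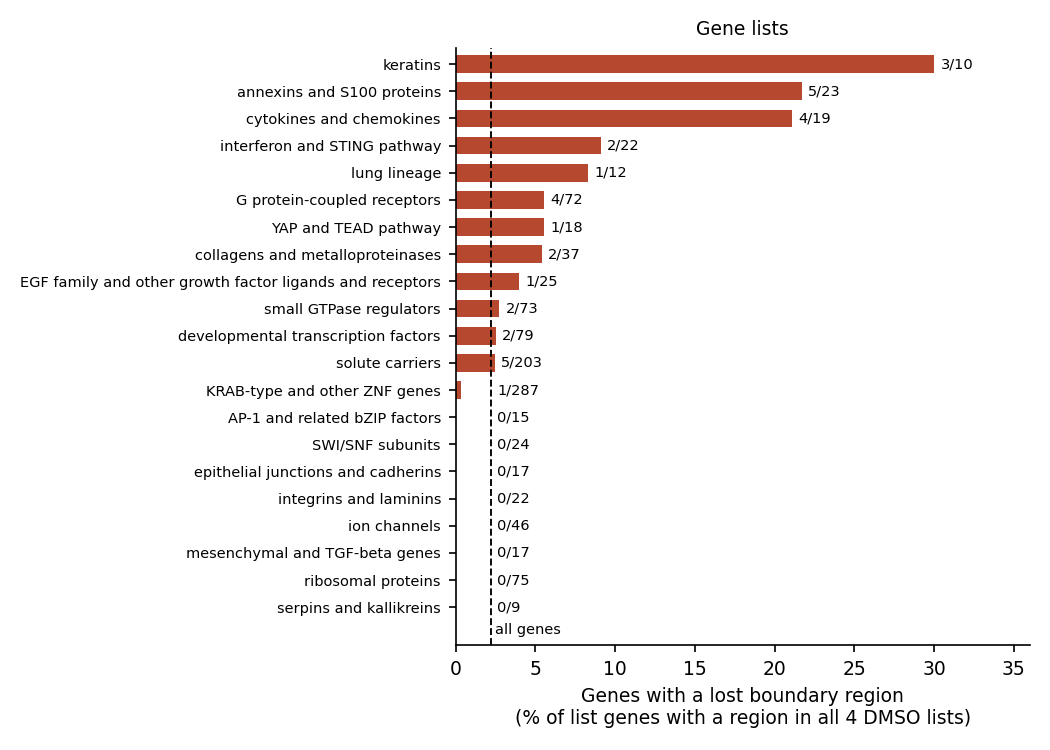
Percent of genes with a lost boundary region among the genes of each list with a region in all 4 DMSO lists (x axis), by list (y axis), with the counts beside each bar and a dashed line at the share over all genes, 2.2%. Keratins (3 of 10), annexins and S100 proteins (5 of 23) and cytokines (4 of 19) were highest, and 8 lists had no lost region. Of the lost regions in these 3 highest lists, only that of S100A12 was still found when all peak lists had equal length.

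As background for values from single lists, a −log10 q depends on the depth of its list and is compared only within it. The 12 members at gene starts with the highest mean rank of −log10 q in the DMSO lists had ranks between the 60.8 and 76.3 percentiles. The highest lay inside AMT, of the glycine cleavage system, near its start and near a boundary of NICN1, with −log10 q of 83.4 and 65.1 in H1975 and 51.6 and 40.8 in HCC44. TM4SF4, a membrane protein of the tetraspanin-like family, followed with 54.7, 51.5, 48.5 and 40.3, and FCRLA, a B cell protein, with 40.9, 41, 62.9 and 49.5. These 3 regions stood above the middle of every DMSO list on average and still had no ACBI1 peak. The region of CHRNA9, a nicotinic receptor subunit, covered 263 and 262 bp in H1975, against 1815 and 1936 bp in HCC44, so it was wider in both HCC44 lists. The region shared by KIF7, a kinesin of hedgehog signalling, and PLIN1, a lipid droplet protein, covered 577, 539, 566 and 565 bp and was thus alike in both lines. Next came SLC16A3, then PDZK1, a scaffold of membrane transporters, with 60.1, 49.5, 46.6 and 32.8, and PRDM11, with 59.7, 49, 47.9 and 32.4. MAP1LC3B2, of the autophagy LC3 family, had 39.7, 40.2, 45.2 and 54.6. TMA7B had 71.2, 78.3, 28.8 and 28.2. PLEKHM2, a lysosomal adaptor for kinesin, had 43.9, 29.3, 60.6 and 43.2, and S100A12, described with its family, closed the 12. The start is again the outer end of the gene. The regions of AMT, TM4SF4, KIF7, SLC16A3, PDZK1, PRDM11 and PLEKHM2 did not overlap the promoter windows of these genes. Those of FCRLA, CHRNA9, MAP1LC3B2, TMA7B and S100A12 did.

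The 3 widest members were those of ROBO4, a guidance receptor of endothelium, at 2551 bp, of SLC10A3 with UBL4A at 2319 bp and of PERP, a p53 target of cell junctions, at 2088 bp. ROBO4 covered 1016 and 715 bp in H1975, against 2393 and 1161 bp in HCC44, and PERP 2012 and 1157, and 2020 and 2058. Merging over lists therefore made part of these widths. The members nearest to the edge of the window were beside TPT1, 986 bp from the gene end, L3MBTL2 at 976 bp and AP3M1 at 974 bp. The lost regions just outside it were beside EHBP1L1 at 1002 bp, MOSPD1 at 1004 bp and PRR20G at 1009 bp.

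By position, the 78 regions at gene starts lay beside DVL1, PLEKHM2, GUCA2A, KLF17, CHI3L2, PDZK1, ECM1 with TARS2, ANXA9, S100A12, S100A3, CFAP141 with LTAP1, BGLAP, FCRLA, FAM20B, LPIN1, CIB4, DNAJC5G with TRIM54, XDH, STON1 with STON1-GTF2A1L, C2orf78, FAHD2B, IL1A, TFPI, CRYBA2, UGT1A6, COL7A1 with PFKFB4 with UCN2, AMT with NICN1, TM4SF4, LOC105374355, CHRNA9, IL7R, ACTBL2, IL4, SH3TC2, C1QTNF2, KHDC1L, RAET1L, GPNMB, CCL26, STEAP4, AZGP1, IFRD1, ANXA1, LCN2, FAM25A, TRIM34, PRDM11, YPEL4, CHRM1, C11orf97 with MRE11, ACAT1, ROBO4, SLC2A14, TMT1A, KRT5, IL23A, LOC105369787, OAS1, MAP1LC3B2, RASL12 with SLC51B, UACA, KIF7 with PLIN1, NHERF2, MEFV, CHST4, CCR10 with CNTNAP1, CDK5RAP3, TLK2, SLC16A3, FSTL3, EBI3, CAPS, CYP4F3, EMP3, C20orf141 with TMEM239, UMODL1, TMA7B and SLC10A3 with UBL4A, where "with" joins genes that share a region. The 95 regions at gene ends only lay beside ICMT with RNF207, CA6, KIAA2013, VWA5B1, GRHL3, PHACTR4, RLF, CELSR2, SPATA46, DDX59, IGFN1, IPO9, RASSF5, IL10, TLR5, PLB1, SLC1A4, HK2, ITPRIPL1, BCL2L11, LIMS2 with MYO7B, DHRS9, STK16 with TUBA4A, ERFE with ILKAP, LHFPL4, SETD2, LOC124906262, LRRC58, SEC22A, PLXNA1, NEK11, CEP70, PXYLP1, HTR3D, MSANTD1, ACOX3, ANXA5, FGF2, ARSI, MFAP3, WWC1, ZFP62, MDGA1, RWDD2A, IL20RA, PERP, MTURN, BMPER, TES, CHCHD3, BRD10, ASS1, ANKRD16, PRTFDC1, AP3M1, FAM25A, PLEKHA1, SERGEF, MS4A4A, ATL3, AMOTL1, C1R, DDX11, ZNF740, CBX5, KICS2, SYT1, CORO1C, TPT1, LRTM3, EIF2S1 with PLEK2, EIF2B2, ERG28 with FLVCR2, AMN with CDC42BPB, SNX33, PRSS36, ABCC12, EMC8, LOC128462377, PRDM7, SMYD4, KRABD2, WIPF2, DNAAF19 with FAM187A, TRIM25, CYB561, TGIF1, HMG20B, STX10, FXYD5, SSC5D, LOC124904930, L3MBTL2, GATA1 and FAM3A. The 57 regions with no known orientation lay beside genes that included LY9, PFKFB2, RFX8, USP37, DAW1, UBA7, ARAP2, LOC124900866, LOC128092246, RRAGD, RPA3, AEBP1, PPP1R3B, C8orf74, ATP6V1B2, DOK2, BMP1, PIWIL2, LEPROTL1, PLAT, VXN, PTDSS1, DNAAF11, LYNX1 with SLURP2, TNFSF8, ZMIZ1, IFIT2, ERLIN1, BEST1, HTR3A, ETS1, ADAMTS8, STYK1, BIN2, CCDC63, RFLNA, UBE2L5, EML5, NUPR1, RNF112, KRT13, KRT16, NGFR, MILR1, CD70, DNAAF3, SHLD1, SLPI, UBE2C, LOC124904927, TFF1, CYTH4 and SCUBE1. Coordinates of named members in GRCh38 were chr2:112784216-112784586 for IL1A, chr12:56338649-56339132 for IL23A, chr19:4229235-4229974 for EBI3, chr12:112906680-112907362 for OAS1, chr1:153375377-153375973 for S100A12, chr12:52521341-52522660 for KRT5 and chr17:82216393-82218043 for SLC16A3.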

How the data were processed

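ATAC-seq peaks were read from 8 broadPeak lists, 1 per sample, which the authors called per sample. BWA and hg38 are named in the submitters' processing notes; the peak caller and its filters are not given in the sources used here. The deposited fold enrichment is the authors' ratio over the caller's background, and the deposited −log10 p and −log10 q belong to each peak; comparisons of these values stay within a list, and across lists only ranks were averaged. The deposited score was not used. Depth in reads is unknown.

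Peaks were merged and set against 19970 protein-coding genes of RefSeq GRCh38.p14 as stated in the report. Strand came from the RefSeq promoter table, and promoters were matched by gene identifier (15811 genes). Positions at a start were not compared as a share of all members because under 80% of genes had a strand. No genome sequence was used here, so exons, introns and sequences of peaks were not analysed. The comparison between lines used an exact permutation test, two-sided. Wilson intervals are at 95%.

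The members, gene lists and rules were chosen with earlier results of these data known. Genes named with values were the 12 start members of highest mean −log10 q rank and member genes of 21 lists. Genes with 2 or more members, the 3 widest members and 3 on each side of the window's edge were also named so. Others were picked after their values were seen. These were the 8 printed promoters with TGANTCA, the named examples among the 29 and the 9 genes with an inner promoter. Further immune, channel, junction, TGF-beta or BMP and zinc finger genes were picked in this way too. The names of a few member genes are not reported here. Alternatives changed the threshold, merging, window, annotation, list length and lists included. Python 3.11.15, numpy 2.4.6, pandas 2.3.3, scipy 1.17.1 and matplotlib 3.10.9 were used; the merging and calling were tested on simulated data.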

Additional observations from a re-analysis of the deposited data

How the results depend on the processing

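The percent of gene-boundary regions lost (2.26%) was 2.72% with a minimum −log10 q of 20, 3.37% with a minimum fold enrichment of 5, 1.6% with windows of 0.5 kb, 7.11% with windows of 5 kb, 0.58% with equal numbers of peaks per list and 5.76% with all annotated genes. The number of lost regions (230) was 905 with windows of 5 kb, 40 with equal numbers and 727 with all annotated genes; under the other 5 settings it lay between 157 and 250. Of the 230, 144 were found again with the −log10 q of 20, 107 with the fold enrichment of 5 and 29 with equal numbers. The percent of regions lost in H1975 that were lost in HCC44 (72.6%) was 81.4% with the −log10 q of 20, 93.1% with the fold of 5, 67.4% with 0.5 kb, 83.5% with 5 kb and 87% with equal numbers. The reverse percent (48.4%) was 42%, 21.4%, 43.3%, 59.7% and 41.7% under the same settings. The cause of these moves was not tested, except that wider windows take in distal regions and shorter lists hold fewer peaks.

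Leaving out each list in turn gave 237 to 310 lost regions, 2.33% to 3.05% of gene-boundary regions, 55.2% to 78.5% of H1975 losses shared and 40.5% to 65.1% of HCC44 losses shared. The list whose removal gave 310 regions and 55.2% was H1975 ACBI1 replicate 1; without it the order of the lines turned, with 562 regions lost in H1975 and 476 in HCC44 and with 65.1% of HCC44 losses shared. The width difference between lines was 0.35 to 0.60, and relative to retained regions 0.19 to 0.40, on the log2 scale. With a replicate block, which permutes lines only within a replicate number, the differences stayed at 0.43 and 0.27 and the exact permutation p was 0.5, the smallest its 4 arrangements allow; with 2 lists a line the numbers could not be shown to pair the samples. The width difference kept its sign under every setting that gave a value. The share of members at gene starts was not computed under any setting, since too few genes had a strand.

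The limit on every count is that depth in reads is unknown: a region of low rank with DMSO can miss a shorter list, and absence from a list gives no upper limit on its signal.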
